A study of Mus musculus with 12 samples.

Results

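Eif4a3l1 and the predicted genes Gm5662, Gm2022, Gm8300 and Gm4340 were followed in mouse embryonic stem cells that had lost, kept or regained the chromatin proteins Dppa2 and Dppa4. These 5 genes, of 22180 measured, were chosen by their large rises over knockout cells after either add-back, and for Gm5662 also by its fall in knockout cells. Their probe sets were those that the array annotation gives a single symbol, 2 for Gm5662 and 1 for each of the others, and all 5 genes were found. The 12 Affymetrix arrays made 4 groups of 3. The first was Dppa2/4 knockout cells given mutant Dppa2 and Dppa4 fused to GFP (KO+Mut), a form described by the series as lacking SUMO modification, SUMO being a small protein attached to other proteins. The second was knockout cells given the wild-type GFP fusions (KO+WT), the third the knockout cells (KO) and the fourth the parental cells. All 4 groups carry a tdTomato reporter driven by MERVL. The add-back cells had been transfected with lipofectamine and sorted for GFP, steps that the labels do not give for KO or parental cells, so that KO+Mut against KO+WT was the comparison matched for them. The cells grew on gelatin with serum replacement and LIF. The labels do not say whether the knockout cells are 1 clone.

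Embryonic stem cell cultures hold a few cells that resemble the 2-cell embryo, the stage at which the mouse embryo first transcribes its own genome. Such cells express MERVL, an endogenous retrovirus whose terminal repeats also serve as promoters of host genes, along with families such as Zscan4, Usp17l and Tdpoz. Dppa2 and Dppa4 bind DNA together and are known activators of this program. Eif4a3l1 is named for its likeness to Eif4a3, an RNA helicase at the core of the exon junction complex, which marks spliced messenger RNA. The annotation used here gives the 4 predicted genes no function, and none is assigned to them.

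The annotation of RefSeq (GRCm38.p6) places Eif4a3l1 on chromosome 6, Gm4340 on chromosome 10 and Gm8300, Gm2022 and Gm5662 on chromosome 12, and lists all 5 as protein coding. RefSeq promoter windows, 250 bases before to 50 bases after the annotated start, were at hand for 2 of the members, Eif4a3l1 and Gm4340. They are shown because these genes of different chromosomes turned out to start in similar sequence. Both lie on the plus strand, Eif4a3l1 at chr6:136327289-136327588 and Gm4340 at chr10:104193792-104194091 of GRCm38.p6. Capitals mark stretches of at least 10 bases that are identical in the alignment of the windows.
Eif4a3l1: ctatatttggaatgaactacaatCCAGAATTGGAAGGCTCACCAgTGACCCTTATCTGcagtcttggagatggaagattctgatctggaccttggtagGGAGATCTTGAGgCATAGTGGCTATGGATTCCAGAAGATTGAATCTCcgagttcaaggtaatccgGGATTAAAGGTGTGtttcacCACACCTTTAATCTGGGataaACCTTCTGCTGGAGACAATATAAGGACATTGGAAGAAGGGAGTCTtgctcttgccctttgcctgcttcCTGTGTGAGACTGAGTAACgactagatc
Gm4340: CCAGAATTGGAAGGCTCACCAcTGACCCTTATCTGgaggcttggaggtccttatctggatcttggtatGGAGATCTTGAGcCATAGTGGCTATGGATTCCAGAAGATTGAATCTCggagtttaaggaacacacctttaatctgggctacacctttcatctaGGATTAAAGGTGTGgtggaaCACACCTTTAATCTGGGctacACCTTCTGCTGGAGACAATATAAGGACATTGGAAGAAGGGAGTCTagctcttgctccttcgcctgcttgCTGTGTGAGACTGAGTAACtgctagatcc

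Aligned end to end, the windows shared 247 of 270 paired bases (91.5%), or 80.7% of positions once the 36 gap positions inside the alignment are counted. There were 8 identical stretches of 10 bases or more, which held 175 bases, and the longest ran over 45 bases across the region just before the start. Both windows held the letters TATAA on the plus strand, beginning 28 bases before the start in Eif4a3l1 and 30 bases before it in Gm4340. With both strands searched, 24.9% of the 32851 promoter windows held TATAA. Both also held GATTNAATC, a motif that reads the same on both strands, at 116 bases before the start in Eif4a3l1 and 146 in Gm4340, against 0.268% of all windows. These motifs were picked after the sequences had been read, and a match does not show a binding site.

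The arrays had medians of 3.73 to 3.88 (log2 signal), with r of 0.976 to 0.994 across genes between any 2 arrays. The 10 pluripotent cell markers averaged 8.39 ± 0.05 in KO+Mut, 8.42 ± 0.02 in KO+WT, 8.54 ± 0.04 in KO and 8.44 ± 0.03 in parental cells, and 7 fibroblast markers 3.39 ± 0.05, 3.33 ± 0.09, 3.15 ± 0.05 and 3.27 ± 0.05 in that order (log2, SD, n = 3 arrays). Dppa2 signal was 8.13, 8.69 and 8.63 in KO cells against 9.35, 9.81 and 10.17 in parental cells, and Dppa4 was 7.92, 7.63 and 7.31 in KO cells against 8.24, 8.58 and 8.56 in parental cells. With the add-backs Dppa2 lay between 10.79 and 11.34 and Dppa4 between 10.09 and 10.67. No marker of either list passed the test in any of the comparisons made here. Whether the Dppa2 and Dppa4 probes lie in the deleted sequence is not known here, so these readings check the labels only in part. Arrays of a group are labelled as biological replicates with no mention of separate cultures, and p-values therefore measure the spread between arrays.

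The helicase relative Eif4a3l1 was high after either add-back, low in parental cells and lowest in KO cells. Its log2 signal was 9.81, 10.36 and 11.44 on KO+Mut replicates 1, 2 and 3, then 8.73, 10.10 and 10.84 on KO+WT, 4.28, 4.09 and 4.42 on KO and 5.29, 6.58 and 6.29 on parental replicates. The add-back arrays overlapped with each other and lay above all KO and parental arrays, and every KO array lay below every parental array. The share of all genes with arrays apart in this way was not counted, here and for the other members. The difference from KO was 6.27 in KO+Mut and 5.63 in KO+WT (log2, SE 0.50 for each, n = 3 per group), or 77.3-fold and 49.4-fold, and KO minus parental was -1.79. RNA came from many cells together, and the labels give sorting for GFP only for the add-back cells. Fewer cells expressing a gene and less RNA in each cell therefore cannot be told apart, here and in all results that follow.

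Gm5662 was high after either add-back on both of its own probe sets. Its probe set of higher signal read 8.76, 9.17 and 9.83 in KO+Mut, 7.78, 9.08 and 9.30 in KO+WT, 2.93, 2.58 and 1.95 in KO and 4.24, 5.07 and 4.76 in parental cells (log2). The KO arrays were the lowest and did not overlap with the parental arrays. The differences were 6.77 for KO+Mut minus KO and 6.23 for KO+WT minus KO (SE 0.39), and -2.20 for KO minus parental. The KO readings were close to the lower quartiles of the arrays, 2.36 to 2.47. Without detection calls such values cannot be separated from background, so no fold over KO is given for this gene.

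The second probe set of Gm5662 was less clear below. It read 7.50, 8.44 and 8.99 in KO+Mut, 5.73, 8.22 and 8.56 in KO+WT, 3.14, 2.79 and 1.77 in KO and 2.53, 4.30 and 2.97 in parental cells (log2). The add-back arrays again lay above all others, but KO and parental arrays overlapped, with a difference of -0.70 (SE 0.68). Over KO this probe set was 5.75 higher in KO+Mut and 4.94 higher in KO+WT. With the mean of both probe sets, Gm5662 was 6.26 above KO in KO+Mut and 5.59 above KO in KO+WT, and differed by -1.45 between KO and parental cells. Another probe set, which the annotation shares between Gm5039 and Gm5662, averaged 7.68 in KO+Mut, 7.04 in KO+WT, 2.98 in KO and 2.33 in parental cells, so that its KO minus parental difference was 0.64 (SE 0.61). The probe sets of Gm5662 thus had the same direction over KO cells with either add-back and different directions between KO and parental cells.

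Gm2022 read 10.41, 10.94 and 11.28 in KO+Mut, 9.36, 10.63 and 11.01 in KO+WT, 3.83, 4.41 and 4.63 in KO and 5.58, 6.39 and 6.11 in parental cells (log2). As for Eif4a3l1, the add-backs overlapped with each other, and the KO arrays lay below the parental arrays. It was 6.59 above KO in KO+Mut and 6.05 above KO in KO+WT (SE 0.38), or 96.1-fold and 66.1-fold, and KO minus parental was -1.74. A probe set shared by Gm4027, BB287469, Gm5039 and Gm2022 gave 6.47 and 5.96 for the same add-back differences and -1.92 for KO minus parental.

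Gm8300 was high after either add-back, with KO and parental cells close together. It read 8.74, 9.21 and 10.01 in KO+Mut, 7.73, 8.91 and 9.44 in KO+WT, 4.01, 4.11 and 3.58 in KO and 4.75, 4.38 and 4.71 in parental cells (log2). The KO arrays were all below the parental arrays, but the mean difference of -0.71 had an interval that spans 0 (SE 0.38, 95% interval -1.53 to 0.11). Over KO it was 5.42 higher in KO+Mut and 4.79 higher in KO+WT (SE 0.38), or 42.8-fold and 27.6-fold, the smallest add-back differences of the 5. The KO readings of Gm8300 lay at percentiles 47.3 to 54.8 of the probe sets on their arrays. Without detection calls the background in them is not known, which limits these folds and those of Eif4a3l1 and Gm2022. The KO minus parental difference of Gm8300 was close to that of the second probe set of Gm5662, and whether it departs from those of the other members was not tested.

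Gm4340 stands at the end of a row of predicted genes, since the RefSeq table lists Gm21293, Gm6763, Gm8764, Gm21304, Gm21312 and Gm20765 directly before it on chromosome 10, and none of these 6 has a single-symbol probe set of its own. Gm4340 itself read 10.98, 11.49 and 12.001 in KO+Mut, 10.10, 11.12 and 11.86 in KO+WT, 5.21, 6.12 and 5.33 in KO and 6.47, 7.32 and 6.96 in parental cells (log2). The add-back arrays overlapped with each other, and the KO arrays lay below the parental arrays. The differences were 5.94 for KO+Mut minus KO, 5.47 for KO+WT minus KO and -1.36 for KO minus parental (SE 0.40). Of the 9 probe sets that members share with other symbols 6 name Gm4340 with Gm4301, Gm4312 and others, among them 4 with identical values on all arrays. These 6 gave 6.36 to 7.19 for KO+Mut minus KO, 5.85 to 6.42 for KO+WT minus KO and -2.31 to -2.13 for KO minus parental. Probes common to near-identical copies would measure several genes at once, so that the values of Gm4340, Gm2022 and Gm5662 may include signal from the other genes named with them. Probe sequences were not compared here.

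**Figure D1:**
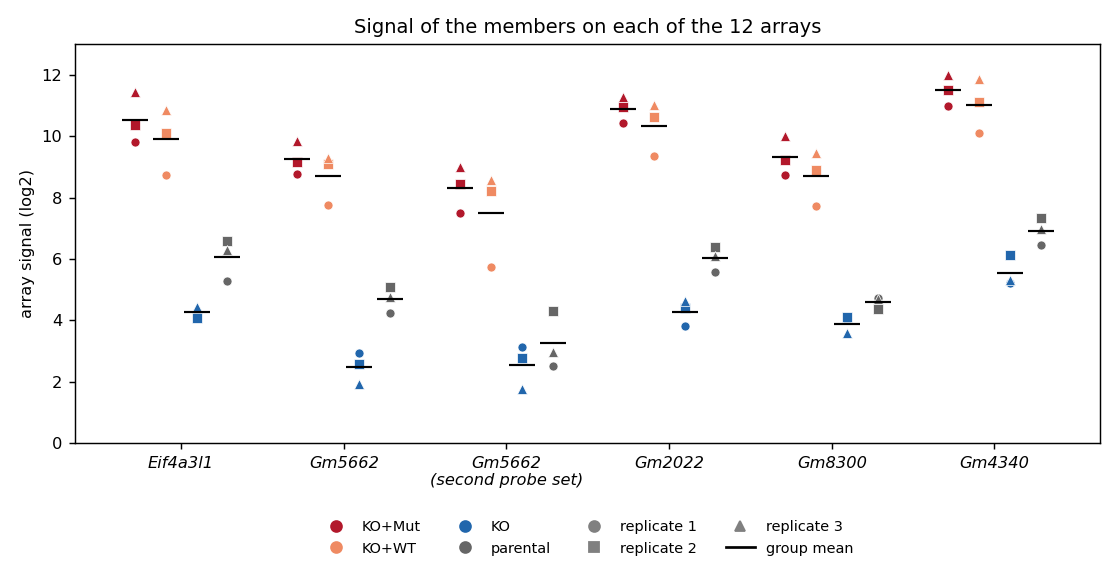
Log2 array signal (vertical axis) of the 6 single-symbol probe sets of the members, with 1 point per array, coloured by group and shaped by replicate number, and a black line at each group mean of 3 arrays. All add-back points of a probe set lie above its KO and parental points, and the KO and parental points overlap for the second probe set of Gm5662.

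Across the 5 genes the order of the group means was the same, with KO+Mut highest, then KO+WT, parental and KO. The neighbours KO+Mut and KO+WT overlapped for every member, KO+WT and parental cells were separated by 3.84 to 4.31, and KO and parental cells were apart by -2.20 to -0.71 (log2). KO+Mut minus parental ran from 4.49 to 4.85, so that both add-backs exceeded the parental level. These comparisons share arrays with those that chose the members, and their values are given as a description without a test. As background, limma at an adjusted p threshold of 0.05 called 0.73% of all genes higher in KO+WT than in KO and 1.12% higher in KO+Mut than in KO, and the members are 5 of each set because they were chosen from them. The counts behind these shares were 248 higher and 34 lower in KO+Mut, and 162 higher and 22 lower in KO+WT. After centring each array on its median they were 194 and 72 in KO+Mut, and 112 and 37 in KO+WT. In KO against parental cells 0.203% of all genes were called lower. There the differences between same-numbered arrays ran from -1.99 to -1.47 for Gm2022, from -1.12 to -0.27 for Gm8300 and from -2.81 to -1.31 for the stronger probe set of Gm5662. The second probe set of Gm5662 went the other way in replicate 1, with 3.14 in KO and 2.53 in parental cells. The shares of all genes that are lower in every pair, or that have all KO arrays below all parental arrays, were not counted.

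Replicate 1 was the lowest and replicate 3 the highest array in both add-back groups for all 5 genes. Averaged over the members, replicates 1, 2 and 3 deviated from their group mean by -0.56, -0.06 and 0.62 in KO+Mut and by -0.99, 0.24 and 0.76 in KO+WT (log2). The deviations were smaller in KO cells (-0.05, 0.16 and -0.12) and in parental cells (-0.39, 0.29 and 0.11). The added proteins' own transcripts did not follow that order throughout. Dppa2 read 11.12, 11.30 and 11.17 in KO+Mut and 10.79, 11.34 and 11.11 in KO+WT, and Dppa4 read 10.55, 10.67 and 10.39 in KO+Mut and 10.09, 10.58 and 10.49 in KO+WT. Replicate 1 of KO+WT was thus lowest for the members and for both Dppa genes, and the part of Dppa2 and Dppa4 levels in the members' spread was not tested.

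Whether the SUMO-deficient proteins acted differently from wild-type ones was a comparison not itself used to choose the members. The choice did use the rises with both add-backs, so a gene responding to only 1 form was unlikely to be a member. Eif4a3l1 averaged 10.54 ± 0.83 in KO+Mut and 9.89 ± 1.07 in KO+WT (log2, SD, n = 3 each), a difference of 0.65 (SE 0.50, 95% interval -0.44 to 1.73). The difference was 0.54 for Gm5662 (-0.31 to 1.39), 0.54 for Gm2022 (-0.27 to 1.36), 0.63 for Gm8300 (-0.19 to 1.45) and 0.46 for Gm4340 (-0.41 to 1.33). None of the 5 passed in limma's test across all genes (adjusted p = 1 for each), where the calls among 22180 genes were 0 higher (0%) and 0 lower (0%). The smallest adjusted p in that limma test was 0.0832. Its unadjusted p was under 0.05 for 675 genes, which is less than a share of 0.05 of all genes. The intervals reach from 0.739-fold to 3.32-fold for Eif4a3l1, so that a change of either sign was not excluded at this number of arrays. Between arrays of the same number, the members were higher in KO+Mut by 0.88 to 1.08 for the arrays numbered 1 and by 0.09 to 0.60 for the others. The share of all genes that are higher in every pair was not counted. The members have nearly the same profile (r of 0.979 to 0.996), so they are not 5 separate observations. The size depended on single arrays. The median over the 5 genes was 0.54 with all arrays, 0.06 without KO+WT replicate 1, 0.25 without KO+Mut replicate 3 and 0.88 without KO+WT replicate 3, and without KO+WT replicate 1 the differences were 0.0005 to 0.15 for the 5 genes.

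**Figure D2:**
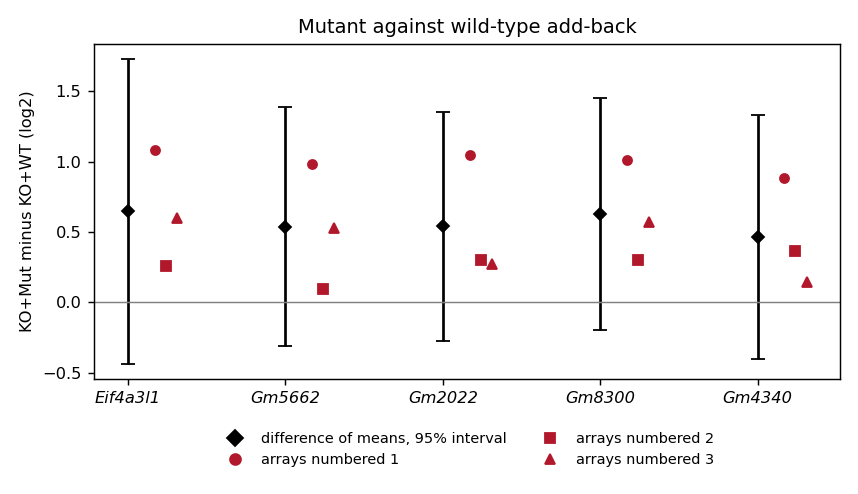
KO+Mut minus KO+WT (log2, vertical axis) for the 5 members, with the difference of the means of 3 arrays and its 95% limma interval as a black diamond with bars, and the difference of same-numbered arrays as red symbols. Every interval spans 0, and every red symbol is above 0, with the arrays numbered 1 highest.

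The genes between the chromosome 12 members split in their response. From Gm8300 to Gm5662 the RefSeq table lists 55 genes, 17 protein coding and 38 pseudogenes, of which 8 besides the members had a single-symbol probe set. Of these 8, 4 rose in KO+Mut over KO and 4 in KO+WT over KO, and 0 fell in either comparison, against 1.12% and 0.73% of all genes called higher and 0.153% and 0.0992% called lower. The comparisons share the KO arrays and are those that chose the members at the ends of the stretch. These neighbours were added after their values were seen, so the counts are a description and not separate evidence. Probe sequences were not compared, so signal shared between genes of the stretch was not tested. Gm2046 averaged 10.17 in KO+Mut and 9.76 in KO+WT, against 3.29 in KO cells (log2), which are differences of 6.88 and 6.47 (SE 0.40, limma adjusted p = 1.02e-06 and 2.77e-06). The pseudogene Gm2035 rose by 4.13 and 3.86 (adjusted p = 0.000191 and 0.000448), Gm2016 by 4.28 and 3.39 (0.00025 and 0.00237) and the transcribed pseudogene Gm1995 by 4.03 and 3.23 (0.00172 and 0.0117).

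The other 4 measured genes of that stretch did not pass. Oog1, an oocyte-expressed gene, differed from KO by 1.00 in KO+Mut and 0.92 in KO+WT (adjusted p = 0.443 and 0.5), while Gm16381, Gm5955 and Pramel51 differed by -0.45 to 0.35 in both. Of the 4 nearest measured protein-coding genes on each side, none passed in either add-back, the splicing cofactor gene Snw1 differing most in KO+Mut with 0.55 (adjusted p = 0.296). In KO against parental cells, where 0.203% of genes were called lower and 0.0361% higher, Gm2046 averaged 3.29 against 5.53 and fell by 2.24 (limma adjusted p = 0.0464), and the other 7 genes of the stretch did not pass. That call was lost without parental replicate 2 or 3 or KO replicate 1 or 2 (adjusted p = 0.197, 0.186, 0.176 and 0.216), in the fit of these 6 arrays (0.126) and after either rescaling of the arrays (0.0544 and 0.0561). Gm1995, Gm2016 and Gm2035, which rose with the add-backs, differed by -0.51, -0.34 and -0.18 between KO and parental cells (lowest adjusted p = 0.979). The rise of Gm1995 in KO+WT had adjusted p of 0.0629, 0.061 and 0.0654 without KO replicate 2, KO replicate 3 or KO+WT replicate 2, and 0.0514 in the fit of the 6 arrays compared.

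**Figure D3:**
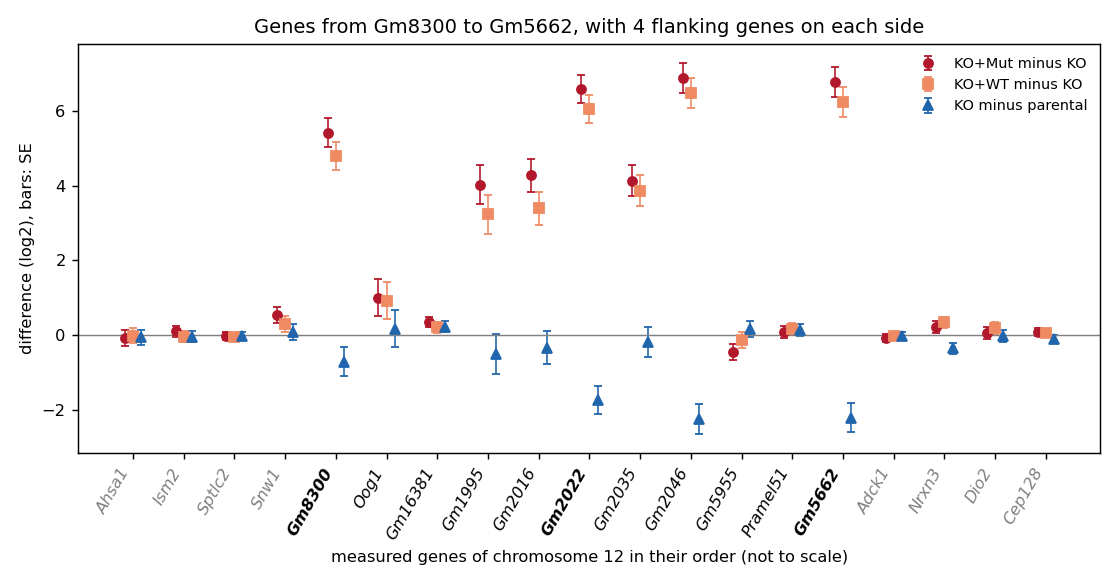
Differences (log2, vertical axis, bars are limma SE) for the measured genes of chromosome 12 in their order, with members in bold and 4 flanking genes on each side in grey. Red circles are KO+Mut minus KO, orange squares KO+WT minus KO and blue triangles KO minus parental. The 3 members and Gm1995, Gm2016, Gm2035 and Gm2046 lie above 3 with either add-back, and the flanking genes lie near 0.

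Sequence similar to the promoter windows of Eif4a3l1 and Gm4340 was also found at other genes. A search of the 32851 promoter windows found 26 further genes whose window matched at least 240 bases of one of the 2 windows, 23 of them matching both. Among the 27 matching windows of these genes 18 held GATTNAATC and 25 held TATAA. They were selected by their likeness to 2 windows that hold both motifs, so these counts follow in part from the selection. The list includes 5 copies beside Gm4340 on chromosome 10 (Gm20765, Gm21293, Gm21304, Gm21312 and Gm8764), with 100% identity to its window over 299 to 300 bases. Among the measured genes described next, Pemt matched Gm4340 at 96.6% over 297 bases, D17Ertd648e matched it at 94.4% over 281 bases and Sgk1 matched Eif4a3l1 at 91.6% over 296 bases. Pramel17 matched Gm4340 at 87.9% over 291 bases, and Sp110 matched Gm4340 only, at 77.9% over 250 bases. No annotation of repeats was used here, so the sequence is given no name. Of the 26 genes 10 had a single-symbol probe set, and some, such as the kinase gene Sgk1, have several promoters in the table, so that a probe set need not measure the transcript that starts there. This search was made after the sequences had been read.

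Of those 10 genes 3 rose in KO+Mut over KO and 1 in KO+WT over KO, against 1.12% and 0.73% of all genes, and 0 fell. These comparisons also chose the members, and the relatives were added after their values were seen. The counts are therefore a description and not separate evidence. Sp110, a nuclear body protein gene that is also among the listed 2-cell genes with given names, averaged 7.79 in KO+Mut and 6.98 in KO+WT, against 2.58 in KO and 3.67 in parental cells (log2), rising over KO by 5.21 and 4.39 (limma adjusted p = 8.17e-06 and 5.72e-05). Pramel17, a gene of the Prame-like family, differed from KO by 3.66 in KO+Mut (adjusted p = 0.0137) and by 2.79 in KO+WT (0.0776). The phospholipid methyltransferase gene Pemt differed by 0.89 (0.00976) and 0.66 (0.0666), and the ubiquitin ligase gene Arih2 by 0.75 (0.0893) and 0.63 (0.184). Sgk1 differed by -0.36 and -0.34 and D17Ertd648e by 0.14 and 0.15. Whether the closeness of a match goes with the size of the difference was not tested. D17Ertd648e and the other 4 genes differed by -0.28 to 0.57, with adjusted p of 0.228 or more. Between KO and parental cells none of the 10 passed, Sp110 having the largest difference with -1.09 (adjusted p = 0.504, and 0.0244 in the fit of these 6 arrays). The KO+Mut calls of Pemt and Pramel17 were lost without KO replicate 1 (0.0502 and 0.0579) or KO+Mut replicate 2 (0.0629 and 0.0794), and that of Pramel17 also without KO replicate 3 or KO+Mut replicate 3 (0.0635 and 0.0582). Without KO+WT replicate 1 both genes passed in KO+WT (adjusted p = 0.0157 for Pemt and 0.00118 for Pramel17).

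**Figure D4:**
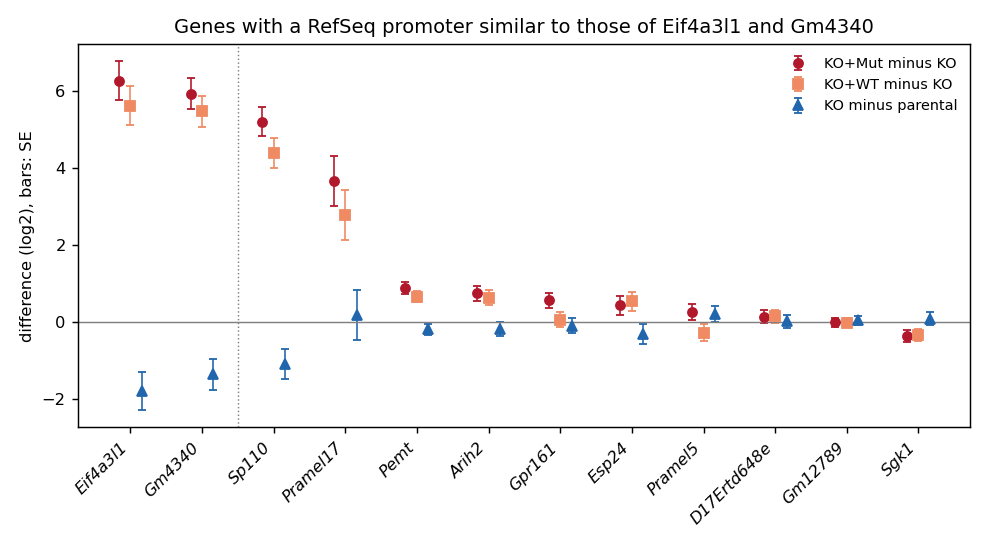
Differences (log2, vertical axis, bars are limma SE) for Eif4a3l1 and Gm4340, left of the dotted line, and for the 10 measured genes with a similar promoter window. Red circles are KO+Mut minus KO, orange squares KO+WT minus KO and blue triangles KO minus parental. Sp110 and Pramel17 lie nearest to the members, and 6 genes at the right lie between -0.4 and 0.6.

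Genes of the translation machinery that Eif4a3l1 is named after differed little between the groups. Of 47 listed genes of translation initiation and the exon junction complex 38 were measured, and 0 rose and 0 fell in any of KO+Mut against KO+WT, KO+Mut against KO, KO+WT against KO and KO against parental cells, with medians of 0.03, -0.05, -0.09 and 0.02 (log2) beside medians over all genes of -0.01 to 0.00. With 0%, 1.12%, 0.73% and 0.0361% of all genes called higher in these comparisons, and 0%, 0.153%, 0.0992% and 0.203% lower, a count of 0 among 38 genes is near the background. The differences of the 38 genes ran from -0.24 to 0.29 in KO+Mut over KO and from -0.39 to 0.23 in KO+WT over KO. Eif4a3 averaged 5.77 in KO+Mut and 5.69 in KO+WT, against 5.72 in KO cells and 5.67 in parental cells (log2), with differences from KO of 0.05 and -0.03 (SE 0.11). A probe set shared by Eif4a3, Eif4a3l1 and Gm5576 averaged 9.93 in KO+Mut and 9.66 in KO+WT, against 8.997 in KO cells, so that it differed by 0.93 and 0.67 (SE 0.31). For the scanning factor genes Eif1a and Eif1ax, and for Eif1ad, which is related to them by name, the add-backs differed from KO by -0.26 to -0.09. The smallest p-values of the list over KO were those of Eif4b, which stimulates the helicase eIF4A, in KO+Mut (-0.24, adjusted p = 0.361) and of the eIF3 subunit gene Eif3e in KO+WT (-0.39, adjusted p = 0.254).

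Among other genes listed for the 2-cell program, few predicted ones could be read. Of 23 predicted genes 4 were measured by a single-symbol probe set, and 3 of them (Gm2016, Gm2035 and Gm20767) rose in KO+Mut and in KO+WT over KO, against 1.12% and 0.73% of all genes, while Gm16381 did not pass. Only Gm20767 is new here, since Gm2016, Gm2035 and Gm16381 were already counted among the chromosome 12 genes. Gm20767 averaged 7.02 in KO+Mut and 6.62 in KO+WT, against 2.76 in KO and 3.40 in parental cells (log2; limma adjusted p = 0.00163 and 0.00466 over KO). Of 21 measured genes with given names, such as Zscan4e and Usp17le, 16 rose in KO+Mut and 13 in KO+WT over KO, against the same shares of all genes, with medians of 4.25 and 3.19 (log2). In KO against parental cells 2 of the 21 fell, Zscan4e and Usp17le, with a median of -0.60, and 0 of the 4 predicted genes did, against 0.203% of all genes. With the replicate number as a block 4 of the 21 fell, against 97 of all 22180 genes. These lists were written with earlier results known and were partly compiled from genes that respond in such cells, so their direction is not independent evidence.

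By Pearson correlation over the 12 arrays with the mean centred profile of the members, the most similar of 22175 other genes were Zscan4c (r = 0.998), Tdpoz3 (0.997), Sp110 (0.996), Tcstv3 (0.993), Zscan4b (0.992), Pramel31 (0.991), the chemokine gene Ccl3 (0.989), Gm2046 (0.989), Pramel19 (0.988) and AF067061 (0.987). Such r values mostly describe the gap between the add-back arrays and the rest, and 49 genes had r over 0.95. Ccl3 averaged 7.97 in KO+Mut and 7.21 in KO+WT, against 2.52 in KO and 3.85 in parental cells (log2). The members correlated with each other at r of 0.979 to 0.996, the lower end being Gm5662 with Gm8300. In KO against parental cells no endoderm or fibroblast marker passed the threshold, though the endoderm average was lower in KO. The 6 endoderm markers averaged 5.61 ± 0.20 in KO cells (5.37 to 5.75) and 6.25 ± 0.32 in parental cells (5.91 to 6.52; log2, SD, n = 3 arrays), with 6 of 6 lower in KO and 0 past the threshold. In KO+Mut and KO+WT these markers averaged 5.567 and 5.655. Their part in the members' difference between KO and parental cells was not tested. Between KO and parental cells the 7 fibroblast markers differed by -0.24 to -0.003, with 0 past the threshold.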

How the data were processed

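RNA from 12 mouse embryonic stem cell samples was labelled with the Affymetrix WT Plus kit, per the labels' protocols. The authors deposited normalized log2 signals of each probe set on each array. The submitters' processing notes name the Transcriptome Analysis Console. They state neither its version nor a build, background correction or summarization method, and compression of low signals would carry into the differences. Of 41345 probe sets 23521 had 1 symbol in GEO's annotation, 1814 several and 16010 none. The probe set of highest mean stood for a gene.

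All 12 arrays were fitted in R 4.3.3 with limma 3.58.1, by lmFit and eBayes with 1 mean per group, and p-values adjusted by Benjamini-Hochberg over 22180 genes, at a threshold of 0.05. The fit was tested on simulated data. Promoters were aligned with Biopython 1.88 and searched with BLAST+ 2.17.0 (blastn, plus strand, E-value limit 1e-20). A planned search for protein relatives was not made, since no protein table was used. Python 3.11.15, pandas 2.3.3 and matplotlib 3.10.9 made tables and figures. The members and lists were chosen with earlier results of these data known. Named were all members, list genes of smallest p, the genes of eIF1A and eIF4A3, and the 10 most similar profiles; neighbours and promoter relatives were added after their values were seen. Alternatives were a replicate block, quantile normalization, median centring, a filter at percentile 25, trend and robust variances, array weights, fits of 6 arrays, the mean of probe sets and leaving out each array.

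Titles number the replicates 1 to 3. Deviations of same-numbered arrays correlated above 0.1 in every pair for KO+Mut against KO+WT (0.40, 0.21 and 0.47) and KO against parental (0.36, 0.15 and 0.42). The same held for KO+WT and KO+Mut against parental cells. For KO+WT and KO+Mut against KO replicate 2 gave 0.06 and 0.08. The main fit held no term for the replicate number in any comparison, so its SE, intervals and adjusted p are unpaired. Pairing entered only the replicate block alternative and the described differences of same-numbered arrays.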

Additional observations from a re-analysis of the deposited data

How the results depend on the processing

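The median difference of the 5 members kept its direction and moved by less than its replicate SD of 0.72 (log2) in all 6 comparisons and all alternatives run. With 1 array left out it was 0.06 to 0.88 for KO+Mut minus KO+WT, 5.82 to 6.64 for KO+Mut minus KO, 5.15 to 6.21 for KO+WT minus KO, -1.96 to -1.51 for KO minus parental, 4.32 to 4.85 for KO+Mut minus parental and 3.71 to 4.56 for KO+WT minus parental. For KO+Mut minus KO+WT the median with all arrays, 0.54, was itself smaller than the SD of 0.72. A fall to 0.06 therefore stayed within that limit, which shows little about stability in this comparison. No member reached the threshold between KO+Mut and KO+WT in any alternative; with the replicate block the adjusted p was 0.873 to 0.917. Counts over all genes moved more. With the replicate block 480 were higher and 236 lower in KO+Mut than in KO (248 and 34 without it), 353 and 141 in KO+WT than in KO (162 and 22), and 40 and 97 in KO than in parental cells (8 and 45). Centring gave 194 higher and 72 lower in KO+Mut, 112 and 37 in KO+WT, and the filter on low signals 52 lower in KO+Mut and 34 lower in KO+WT. Array weights gave 432 higher and 96 lower in KO+Mut, and 26 higher and 113 lower in KO than in parental cells. Fits of 6 arrays gave 12 lower in KO+Mut, 71 higher and 4 lower in KO+WT, and 1 higher and 26 lower in KO. Leaving out 1 array gave 109 to 192 higher and 10 to 19 lower in KO+Mut, 80 to 154 and 6 to 12 in KO+WT, and 0 to 3 and 18 to 29 in KO; the lowest counts of higher genes came without KO+Mut replicate 2 (109), KO replicate 2 (80) and parental replicate 2 (0). The 2-cell genes with given names that fell in KO cells numbered 4 with the replicate block, 5 with array weights and 5 in the fit of 6 arrays. The block also brought Pemt, Pramel17 and Arih2 past the threshold in KO+WT over KO (adjusted p = 0.0113, 0.0244 and 0.0142) and Arih2 in KO+Mut (0.00453). The cause of these changes was not tested. Signals near the lower quartile of an array, as for Gm5662 in KO cells, limit how far a fall can be read.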
